A study of Paracentrotus lividus with 19 samples.

Results

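Paracentrotus lividus sea urchin embryos that had been exposed to ZnO particles were compared, as whole embryos, with unexposed embryos, in 7 of the 19 poly(A) RNA libraries of the series. The 3 ZnO libraries (1 each in the sets F1, F2 and F3) and the 4 control libraries (2 in F1, 1 each in F2 and F3) were taken by the treatment and set that their titles name. ZnO embryos were kept for 24 h from fertilization with engineered ZnO particles at 1e-05 M, labelled as 0.8 mg per L of zinc. Both figures are printed as labelled, and whether they agree was not checked. Control embryos received no metal, and all embryos were harvested 24 h after fertilization, about 6000 to a sample. The other libraries came from embryos exposed to the salt ZnSO4 (4 libraries), labelled as carrying the zinc of the ZnO particles, or to iron as Fe2O3 particles or FeCl3 (4 libraries each). The question addressed here is which transcripts differ between ZnO embryos and control embryos, and whether they do so in every set. The labels do not say what a set is, how many cultures a library stands for, how large the particles were or how much zinc dissolved, so the p-values measure the spread between these libraries only.

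Zinc oxide particles are known to release zinc ions in water. Animal cells bind excess zinc with metallothioneins, small cysteine-rich proteins whose genes are switched on by a zinc-sensing transcription factor, and move it with zinc transporters. In its first days the sea urchin embryo builds a gut, a calcite skeleton laid down by mesenchyme cells, an ectoderm with oral and aboral sides, and an apical plate that carries long cilia and gives rise to larval neurons. Zinc has a long history in sea urchin embryology as an agent that shifts the balance between the animal (ectodermal) and the vegetal (gut and skeleton) parts of the embryo.

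The 7 libraries held 24438369 to 32801015 counts each. Of 63389 features, 62865 passed the filter on low counts and 57994 had a count in each of the 7 libraries. A feature is a contig or predicted transcript, and a suffix in its name numbers the contigs of that name (ACAC.1.3 is contig 1 of 3). Defining genes of several embryo parts were present in each of the 7 libraries: ENDO16.1.3 of the gut at 109 to 273 CPM, SM29 of the skeleton at 119 to 189 CPM, UNIV of the ectoderm at 83.3 to 149 CPM and NK2.1 of the apical plate at 3.13 to 17.6 CPM (CPM are counts scaled to library size, by TMM). The F1 controls differed by more than counting noise, with a chi-square of 5.48 per degree of freedom over 60100 features, and were kept as separate libraries. That spread does not show that they stand for separate cultures, since repeat libraries of 1 culture can differ so too. With the F1 duplicates summed, 837 features were called in the comparison below rather than 1311. Values below are in the order F1, F2, F3 for ZnO embryos and F1, F1, F2, F3 for control embryos.

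ZnO embryos differed from control embryos in 1311 features (2.09% of those tested), 596 of them higher (0.948%) and 715 lower (1.14%). Calls required an adjusted p under 0.05 in a fit with treatment and set as terms, and log2 fold changes are given ± SE. Most changes were small: the median log2 fold change was 0.74 among features that rose and -0.84 among those that fell, against 0.0041 over all features tested, whose quartiles were -0.15 and 0.15. Changes over 2-fold were found in 171 features that rose and 279 that fell, and changes over 8-fold in 20 that rose and 14 that fell. Features called higher held 6.08%, 5.24% and 5.78% of the counts of the ZnO libraries, against 3.62%, 3.52%, 3.55% and 3.72% of the counts of the control libraries. Features called lower held 1.82%, 1.88% and 2.15% in ZnO libraries, against 3.38%, 3.38%, 2.68% and 3.31% in control libraries. Neither pair of ranges overlapped, though these shares describe the features that the call picked out. Of the 1311 features, 1276 (97.3%) moved in the same direction within F1, F2 and F3, which 30.9% of all features tested did. The call was made over these same sets and favours such features. The share is a description only.

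**Figure D1:**
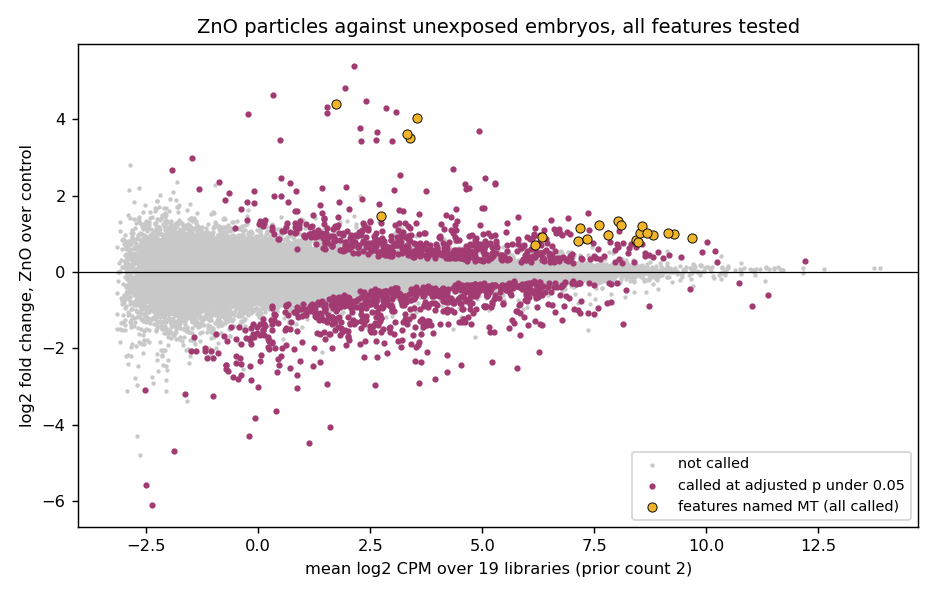
The log2 fold change of ZnO over control embryos (y axis) is plotted against the mean log2 CPM over the 19 libraries (x axis) for each of the 62865 features tested, with the 1311 called features in purple and the 23 features named MT in yellow. The MT features all lie above 0, with 4 of them apart from the other 19 at log2 fold changes of 3.50 to 4.39.

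The calls were concentrated in features with a gene name and in abundant ones. Features with a gene name were called in 64 of 574 cases (11.1%), and still in 41 of 551 (7.44%) when the 23 MT features were set aside, 18 higher (3.27%) and 23 lower (4.17%). The lists below hold gene-named features and are read against these shares. Features with a LOC identifier were called in 368 of 11213 cases (3.28%), with 129 higher and 239 lower, and numbered contigs in 875 of 50969 (1.72%), with 423 higher and 452 lower. By abundance, the called share was 0.49% in the lowest quartile of features, 1.08% in the second, 2.14% in the third and 4.63% in the highest, so the calls say least about scarce transcripts. Left out 1 at a time, the 7 libraries each removed some calls, and 450 of the 1311 (225 higher and 225 lower) held through every omission. The number called was 651 without the F1 ZnO library and 873 without the F3 control library. Where a feature named below is not among those, the library whose omission raised its adjusted p most is given.

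Metallothionein transcripts rose in ZnO embryos, all 23 features named MT being called higher, with a median log2 fold change of 1.01. Summed, they reached 11388, 8652 and 12593 CPM in ZnO embryos, against 5702, 5707, 3775 and 6842 CPM in control embryos. Each ZnO library lay above all 4 controls, and the sum rose by 1.01 ± 0.09 on the log2 scale (95% interval 0.82 to 1.19), adjusted p = 2.09e-07. Within the sets the difference was 1.00 in F1, 1.2 in F2 and 0.88 in F3 on the log2 scale. Metallothionein took 1.13%, 0.877% and 1.17% of all counts in ZnO libraries, against 0.579%, 0.562%, 0.389% and 0.659% in control libraries.

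Within the family the changes fell into a small strong group and a broad moderate one. MT.19.23, which changed most, stood at 23.4, 8.64 and 27.5 CPM in ZnO embryos, against 0.792, 1.04, 0.386 and 1.63 CPM in control embryos. Every ZnO library stood far above every control, a log2 fold change of 4.39 ± 0.22, adjusted p = 3.56e-12. The next was MT.23.23, with 68.8, 27.4 and 85.2 CPM in ZnO embryos, against 3.20, 2.72, 1.86 and 7.39 CPM in control embryos, and a log2 fold change of 4.03 ± 0.24, adjusted p = 6.84e-11. MT.2.23 and MT.17.23 completed this group with log2 fold changes of 3.61 ± 0.15 and 3.50 ± 0.13, adjusted p = 9.41e-14 and 1.16e-14. The other 19 features rose by 0.71 (MT.15.23) to 1.46 (MT.10.23) on the log2 scale.

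Individual MT features differed between sets even in unexposed embryos. MT.6.23 had 64.2, 1140 and 52.3 CPM in ZnO embryos, against 28.2, 31.6, 522 and 35.3 CPM in control embryos. Its F2 libraries stood far above the others in both groups, and within each set the ZnO library was higher (1.1, 1.13 and 0.57 within F1, F2 and F3), a log2 fold change of 0.92 ± 0.14, adjusted p = 0.000361. MT.5.23 had 88.3, 1103 and 1234 CPM in ZnO embryos, against 28.4, 31.8, 455 and 690.3 CPM in control embryos, low in F1 in both groups. Its rise differed between sets, at 1.55, 1.28 and 0.84 within F1, F2 and F3 (adjusted p of the set-by-treatment terms = 0.0292), as did that of MT.21.23, at 0.82, 1.2 and 0.39 within F1, F2 and F3 (adjusted p = 0.015). MT.15.23, with 283, 79.5 and 22.4 CPM in ZnO embryos, against 129, 167, 40.5 and 19.6 CPM in control embryos, rose (log2 fold change 0.71 ± 0.15, adjusted p = 0.0103). Its adjusted p was 0.228 without the F1 ZnO library, and its call was also lost without the first F1 control or the F2 control library. How reads that match several MT features were counted is not given in the sources used here, so the values of single MT features are less certain than their sum. S39AE, named for a zinc transporter of the ZIP family and the only other zinc-handling gene on the list, was not called, with 22.2, 30.8 and 24.8 CPM in ZnO embryos, against 32.7, 30.3, 36.7 and 30.1 CPM in control embryos and a log2 fold change of -0.34 ± 0.10, adjusted p = 0.0615.

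**Figure D2:**
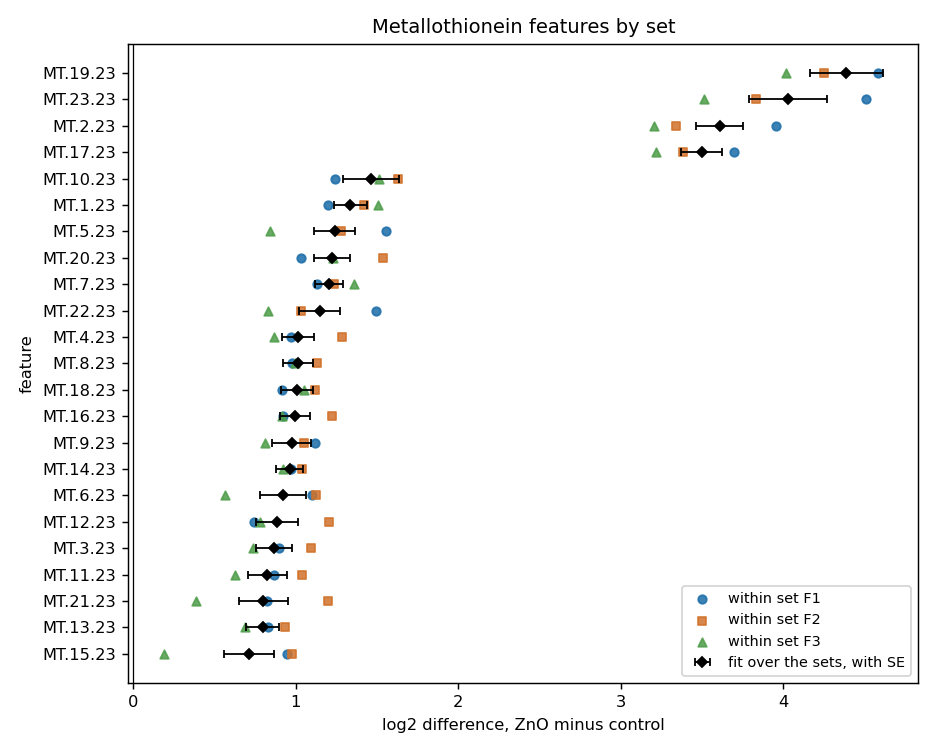
The log2 difference of ZnO minus control embryos (x axis) is shown for each of the 23 metallothionein features (y axis), as the value within F1, F2 and F3 (coloured points) and as the fit over the sets with its SE (black). Each point of each feature lies above 0, from 0.19 for MT.15.23 in F3 upward.

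Genes of fatty acid metabolism fell. Of 8 features listed, 7 were called lower and none higher, with a median log2 fold change of -0.78 over the 8 against 0.0041 over all features tested. The strongest changes were in acetyl-CoA carboxylase (ACAC), which makes malonyl-CoA, the building block of fatty acid synthesis. ACAC.1.3 had 28.3, 29.5 and 55.1 CPM in ZnO embryos, against 99.7, 115, 73.9 and 122 CPM in control embryos. All ZnO libraries lay below all controls, and its log2 fold change was -1.40 ± 0.21, adjusted p = 0.000222. The log2 fold change was -1.36 ± 0.19 for ACAC.2.3 and -1.28 ± 0.20 for ACAC.3.3 (adjusted p = 0.000112 and 0.000422). With the contigs of this name summed, the log2 fold change was -1.34 ± 0.19, adjusted p = 0.000206. None of the ACAC calls was lost when any 1 library was left out.

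Carnitine palmitoyltransferase 1, which carries long-chain fatty acids toward oxidation in the mitochondrion and is inhibited by malonyl-CoA, was lower in both of its named forms. CPT1B had 24.8, 23.9 and 30.6 CPM in ZnO embryos, against 40.6, 49.3, 35.8 and 37.9 CPM in control embryos. The groups did not overlap, and the log2 fold change was -0.60 ± 0.10, adjusted p = 0.00125. CPT1A had 23, 26.5 and 35.2 CPM in ZnO embryos, against 32.8, 41.8, 41.6 and 45.6 CPM in control embryos, where the F3 ZnO library lay above 1 of the F1 controls but below the F3 control, and fell (log2 fold change -0.57 ± 0.10, adjusted p = 0.00136). ACSA, named for acetyl-CoA synthetase, which makes acetyl-CoA from acetate, had 74.0, 82.7 and 93.4 CPM in ZnO embryos, against 98.8, 108, 102 and 118 CPM in control embryos, without overlap and with a log2 fold change of -0.38 ± 0.07, adjusted p = 0.00270. ACADSB, named for an acyl-CoA dehydrogenase that oxidizes short and branched chains, had a log2 fold change of -0.32 ± 0.08, adjusted p = 0.0330, with an adjusted p of 0.190 without the F1 ZnO library. ACSA and ACADSB were named after their values were seen. ECHS1, named for an enoyl-CoA hydratase, stood under 1 CPM in all 7 libraries and was not called (-0.97 ± 0.54, adjusted p = 0.539).

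Actin features that passed the test were higher and tubulin features that passed were lower. Of 7 actin features, 5 rose (71.4%) and none fell (median log2 fold change 0.36), and of 33 tubulin features 4 fell (12.1%) and none rose (median -0.28). Of all gene-named features outside the MT family, 3.27% rose and 4.17% fell. The tubulin share of 12.1% is near the 7.44% of those features called either way, and is not read as a result of the group. The actin and tubulin lists were separated after the values of the joint cytoskeleton list had been seen, in which 5 of 44 features rose and 4 fell. The change of ACTG1, named for a cytoplasmic actin, was the largest, with 338, 242 and 285 CPM in ZnO embryos, against 111, 135, 113 and 179 CPM in control embryos. The lowest ZnO library stood above the highest control, a log2 fold change of 1.1 ± 0.13, adjusted p = 1.72e-05, and the rise differed between sets, at 1.46, 1.1 and 0.67 within F1, F2 and F3 (adjusted p of the set-by-treatment terms = 0.0284).

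The other actin changes were smaller. ACT1.2.2 had 609.8, 366 and 711 CPM in ZnO embryos, against 425, 448, 274 and 508 CPM in control embryos, where F2 was low in both groups, and rose (log2 fold change 0.45 ± 0.08, adjusted p = 0.000915). ACT2 had 845, 389 and 853 CPM in ZnO embryos, against 555, 646, 334 and 649.6 CPM in control embryos, and rose (log2 fold change 0.36 ± 0.08, adjusted p = 0.0174). ACT1.1.2 (0.55 ± 0.13, adjusted p = 0.0240) and ACTC.1.2 (0.27 ± 0.07, adjusted p = 0.0344) rose too. These 3 were sensitive to single libraries. Without the F1 ZnO library the adjusted p was 0.299 for ACT2, 0.534 for ACT1.1.2 and 0.420 for ACTC.1.2, and each was also lost without the first F1 control, the F2 control or the F3 control, and ACT2 and ACTC.1.2 without the F3 ZnO library. ACTC.2.2 and ACTD were not called, with log2 fold changes of 0.24 ± 0.14 and 0.26 ± 0.09.

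Among tubulins, 30 of 33 log2 fold changes were negative, over contigs of 15 names. The median over gene-named features outside the MT family was -0.0072. Their share of negative values is not given here, and 12 of the tubulin contigs are of TBA1, so contigs are not independent. The count of negative values is a description and is not read as a result of the group. TBB4B.2.3, a beta-tubulin, had 46.8, 67.6 and 56.7 CPM in ZnO embryos, against 66.0, 74.2, 86.2 and 85.3 CPM in control embryos, so that 1 F1 control stood just below the highest ZnO library. It fell (log2 fold change -0.52 ± 0.13, adjusted p = 0.0350). TBB1.1.2 (log2 fold change -0.47 ± 0.10, adjusted p = 0.0117), TBB2A (-0.43 ± 0.11, adjusted p = 0.0315) and the alpha-tubulin TBA.2.4 (-0.39 ± 0.10, adjusted p = 0.0420) fell as well. All 4 calls were lost when the F1 ZnO library was left out, and the highest adjusted p with 1 library left out was 0.200 for TBB1.1.2, 0.118 for TBB2A (without the F2 ZnO library), 0.374 for TBA.2.4 and 0.176 for TBB4B.2.3. TBB2A and TBB4B.2.3 kept their calls only without the F2 control library, and TBA.2.4 only without the F3 ZnO library. Actin and tubulin contigs are near-identical copies in many animals, so reads may be divided between them. With the contigs of a name summed, the log2 fold change was -0.39 ± 0.09 for TBB4B (adjusted p = 0.0172), -0.43 ± 0.10 for TBB1 (adjusted p = 0.0147) and -0.41 ± 0.11 for TBA (adjusted p = 0.0444), whereas TBA1 with its 12 contigs was not called (-0.17 ± 0.09, adjusted p = 0.456). None of the 13 cilia features, which include dynein chains, was called.

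Among gene-named features, regulators and markers of the ectoderm and apical plate included some of the deepest falls. HMB1, listed with the ectoderm genes, had 18.0, 33.7 and 52.5 CPM in ZnO embryos, against 175, 180.2, 94.3 and 180.3 CPM in control embryos. The highest ZnO library was lower than the lowest control, and the log2 fold change was -2.10 ± 0.23, adjusted p = 4.31e-06. DLX, a distal-less homeobox gene, had 7.62, 16.15 and 42.1 CPM in ZnO embryos, against 73.6, 82.6, 39.1 and 71.9 CPM in control embryos. Its F3 ZnO library stood above the F2 control but below the F3 control, and it fell (log2 fold change -1.56 ± 0.33, adjusted p = 0.00947). UNIV (univin), a TGF-beta ligand, moved the other way, with 149, 98.9 and 124 CPM in ZnO embryos, against 102, 108, 83.3 and 101 CPM in control embryos and a log2 fold change of 0.35 ± 0.08, adjusted p = 0.0102; its adjusted p was 0.215 without the F1 ZnO library. CHRD (chordin, a BMP antagonist) and HMX (a homeobox gene) were not called, and their values by set are given further on. In all, 1 of 6 ectoderm features rose and 2 fell, with a median of -0.81. This is 50% called, against 7.44% of gene-named features outside the MT family.

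Of 5 apical plate and neuron features, 3 fell and none rose, with a median log2 fold change of -1.29. The share called was 60%, against 7.44% of gene-named features outside the MT family. The list holds only 4 names, since both contigs of ANKAT-1 are on it, and both are among the falls. ANKAT-1, an ankyrin-repeat gene of the apical tuft in sea urchins, had 12.4, 11.9 and 9.45 CPM in ZnO embryos, against 61.1, 77.4, 53.2 and 57.7 CPM in control embryos in its contig ANKAT-1.1.2. The ZnO libraries lay together far below the controls, and the log2 fold change was -2.35 ± 0.54, adjusted p = 0.0181. The adjusted p was 0.151 without the F1 ZnO library, and the call was also lost without the F3 ZnO, F2 control or the F3 control library. ANKAT-1.2.2 fell (log2 fold change -2.03 ± 0.41, adjusted p = 0.00623), with 0.839, 0.404 and 0.0329 CPM in ZnO embryos, against 3.85, 4.53, 0.912 and 0.278 CPM in control embryos, and lost its call without the F1 ZnO library (adjusted p = 0.456). This contig is scarce, and its F1 ZnO library stood above the F3 control, though within each set the ZnO library was lower. NK2.1, a homeobox gene of the apical plate, had 7.51, 8.40 and 3.13 CPM in ZnO embryos, against 12.8, 17.6, 14.6 and 17.2 CPM in control embryos, with all ZnO values below all controls. It fell (log2 fold change -1.29 ± 0.31, adjusted p = 0.0269), most in F3 (-0.99, -0.80 and -2.43 within F1, F2 and F3; adjusted p of the set-by-treatment terms = 0.00230), and its adjusted p was 0.202 without the F3 ZnO library; the call was also lost without the F1 ZnO, second F1 control, F2 control or the F3 control library. In libraries of whole embryos, fewer cells of a type and less RNA per cell cannot be told apart.

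The skeleton list was divided. SM30A, a spicule matrix protein, fell in both contigs and PM27, another spicule matrix protein, rose, while 9 of 12 skeleton features were not called and the median was 0.19. SM30A.1.2 had 18.7, 11.1 and 19.9 CPM in ZnO embryos, against 20.7, 30.3, 21.6 and 45.8 CPM in control embryos. The 3 ZnO libraries were lower than all controls, F1 by the least (-0.42, -0.96 and -1.20 within F1, F2 and F3), and the log2 fold change was -0.84 ± 0.14, adjusted p = 0.000993. SM30A.2.2 fell (log2 fold change -0.63 ± 0.16, adjusted p = 0.0340), with an adjusted p of 0.289 without the F3 ZnO library; its call was also lost without the F2 ZnO, second F1 control, F2 control or the F3 control library. Their sum also fell (log2 fold change -0.75 ± 0.14, adjusted p = 0.00265). PM27 had 252, 188 and 274 CPM in ZnO embryos, against 190.1, 207, 154 and 200.2 CPM in control embryos, so that the F2 ZnO library lay under 3 controls but above that of F2. It rose (log2 fold change 0.34 ± 0.08, adjusted p = 0.0193), with an adjusted p of 0.186 without the F1 ZnO library, and its call was also lost without the F3 ZnO, first F1 control, F2 control or the F3 control library. The spicule matrix gene SM37.1.2 was not called (0.22 ± 0.07, adjusted p = 0.118). SM30, named here after its values were seen, was not called in the fit with contigs of a name summed (-0.53 ± 0.14, adjusted p = 0.0562). Of the 12 log2 fold changes on the list, 5 were negative and 7 positive.

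Among secreted and matrix proteases 4 of 13 features rose (30.8%, against 3.27% of gene-named features outside the MT family) and none fell, with a median log2 fold change of 0.37. These features are contigs of 4 names, so the share counts contigs of the same gene separately. With contigs of a name summed, MMP16 and BMP1 rose, and BP10 and MMP14 were not called (MMP14 0.32 ± 0.13, adjusted p = 0.319). MMP16, a membrane-bound matrix metalloprotease, had 15.5, 26 and 11.9 CPM in ZnO embryos, against 5.47, 4.87, 11.3 and 6.12 CPM in control embryos. F2 was high in both groups, and within each set the ZnO library was above its control (1.57, 1.2 and 0.95 within F1, F2 and F3). The log2 fold change was 1.28 ± 0.11, adjusted p = 1.12e-07, the smallest adjusted p among called gene-named features other than the metallothioneins. The blastula protease BP10, an astacin-type enzyme, rose in BP10.2.6 (2.36 ± 0.54, adjusted p = 0.0175), which had 1.82, 0.646 and 1.02 CPM in ZnO embryos, against 0.226, 0.202, 0.175 and 0.318 CPM in control embryos, and in BP10.3.6 (1.5 ± 0.38, adjusted p = 0.0340), which had 7.29, 1.78 and 4.12 CPM in ZnO embryos, against 1.70, 1.81, 1.47 and 1.35 CPM in control embryos. Both are scarce, both lost their calls when the ZnO library of F1 was omitted (adjusted p = 0.229 and 0.397) or either F1 control was, BP10.3.6 also without the F2 control, the F3 control or the F3 ZnO library, and the sum of the 6 BP10 contigs was not called (0.29 ± 0.44, adjusted p = 0.892). BMP1, a tolloid-type protease that trims procollagen and frees BMP ligands, had 201, 310.5 and 194 CPM in ZnO embryos, against 149, 143, 276 and 129 CPM in control embryos, and rose (log2 fold change 0.41 ± 0.10, adjusted p = 0.0248); its adjusted p was 0.144 without the F1 ZnO library, and the call was also lost without the F3 ZnO, first F1 control, second F1 control or the F3 control library.

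Among 19 secreted and matrix proteins 1 rose and 1 fell (10.5% called). This share is near the 7.44% of gene-named features outside the MT family, and only the single genes are described. EGIP, the gene of EGF-like peptides known for their effect on sea urchin gastrulation, had 739, 187 and 517 CPM in ZnO embryos, against 421, 424, 121 and 357 CPM in control embryos. Within each set the ZnO library was higher (0.81, 0.63 and 0.53 within F1, F2 and F3), a log2 fold change of 0.64 ± 0.15, adjusted p = 0.0171, and the adjusted p was 0.290 without the F1 ZnO library; the call was also lost without the F2 control or the F3 control library. FREM2, a basement membrane protein, had 1468, 2458 and 2926 CPM in ZnO embryos, against 3125, 3360, 2704 and 4100 CPM in control embryos, and fell (log2 fold change -0.59 ± 0.15, adjusted p = 0.0276). Its fall differed between sets, at -1.14, -0.14 and -0.49 within F1, F2 and F3 (adjusted p of the set-by-treatment terms = 8.30e-05), its adjusted p was 0.343 without the F1 ZnO library, and the call was also lost without the F3 ZnO, first F1 control, second F1 control or the F3 control library.

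Other groups held a pair of calls each. The share called was 14.3% of redox, 11.1% of calcium and 10.5% of transcription factor features. These shares are near the 7.44% above, and only single genes are described. Of 14 redox features 2 rose, DUOX1.1.2, a dual oxidase that makes hydrogen peroxide (0.38 ± 0.08, adjusted p = 0.00623), and NADK.1.3, an NAD kinase, which makes NADP (0.42 ± 0.10, adjusted p = 0.0206). DUOX1.1.2 had 946, 686 and 868 CPM in ZnO embryos, against 714, 751, 457 and 752 CPM in control embryos, with F2 low in both groups, and its adjusted p was 0.0538 without the F2 ZnO library; that of NADK.1.3 was 0.243 without the F3 ZnO library, and its call was also lost without the first F1 control, second F1 control or the F3 control library. Superoxide dismutase SODC (log2 fold change 0.01 ± 0.09), glutathione peroxidase GPX1 (0.04 ± 0.14) and the other 10 redox features were not called. Of 18 calcium features only the calmodulins CALMB.2.3 (0.24 ± 0.06, adjusted p = 0.0362) and CALMB.3.3 (0.26 ± 0.06, adjusted p = 0.0169) rose, and summed with CALMB.1.3 they gave 0.24 ± 0.06 (adjusted p = 0.0185). Their highest adjusted p with 1 library left out was 0.299 without the F1 ZnO library for CALMB.2.3, which was also lost without the F3 ZnO library, either F1 control or the F3 control, and 0.110 without the F3 control for CALMB.3.3, also lost without the F1 ZnO, F3 ZnO or F2 control library.

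Of 19 transcription factor features 2 rose, both contigs of the ETS factor ERG. ERG.1.2 had 90.6, 111 and 100 CPM in ZnO embryos, against 59.8, 64.0, 72.1 and 71.7 CPM in control embryos, without overlap, and rose (log2 fold change 0.53 ± 0.12, adjusted p = 0.0130); ERG.2.2 rose (log2 fold change 0.50 ± 0.12, adjusted p = 0.0186). Without the F1 ZnO library the adjusted p was 0.126 for ERG.1.2 and 0.177 for ERG.2.2, both were also lost without the F2 control or the F3 control, and ERG.2.2 without the F2 ZnO library. Further gene-named features outside these lists fell: ARC3 (-1.36 ± 0.22, adjusted p = 0.000646), which had 9.77, 7.27 and 11.6 CPM in ZnO embryos, against 38.2, 44.3, 15.5 and 23.2 CPM in control embryos, EH2 (-0.86 ± 0.18, adjusted p = 0.00627) and POFUT1.2.2, a protein O-fucosyltransferase contig (-0.53 ± 0.13, adjusted p = 0.0228). The fall of ARC3 differed between sets, at -2.07, -1.08 and -1 within F1, F2 and F3 (adjusted p of the set-by-treatment terms = 0.00462). EH2 lost its call without the F1 ZnO library (adjusted p = 0.144). POFUT1.2.2 did so too (adjusted p = 0.277), and was also lost without the F3 ZnO, second F1 control or the F3 control library.

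Many gene groups gave no call in the comparison of ZnO with control embryos. With 7.44% of gene-named features outside the MT family called, this says little of the shorter lists. None passed among 20 ribosomal protein, 22 oxidative phosphorylation, 23 histone, 24 splicing, 21 zinc finger, 19 vesicle traffic, 14 translation, 14 chromatin, 13 xenobiotic transport, 12 fertilization, 8 heat shock, 8 signalling, 6 gut, 6 apoptosis and DNA damage, 4 cell cycle, 4 iron and 2 pigment and immune features. Their medians lay between -0.10 (gut) and 0.13 (ribosomal proteins), apart from 0.36 for the pigment and immune pair, against 0.0041 over all features tested. The chaperone HSP72.1.3 had 87.8, 39.8 and 76.2 CPM in ZnO embryos, against 84.7, 80.0, 37.6 and 77.2 CPM in control embryos, a log2 fold change of 0.08 ± 0.12, adjusted p = 0.897, and the xenobiotic transporter ABCB8 had 24.2, 26.6 and 33 CPM in ZnO embryos, against 21.8, 24.2, 28.0 and 30.8 CPM in control embryos, a log2 fold change of 0.04 ± 0.08, adjusted p = 0.922. The groups overlapped in both.

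**Figure D3:**
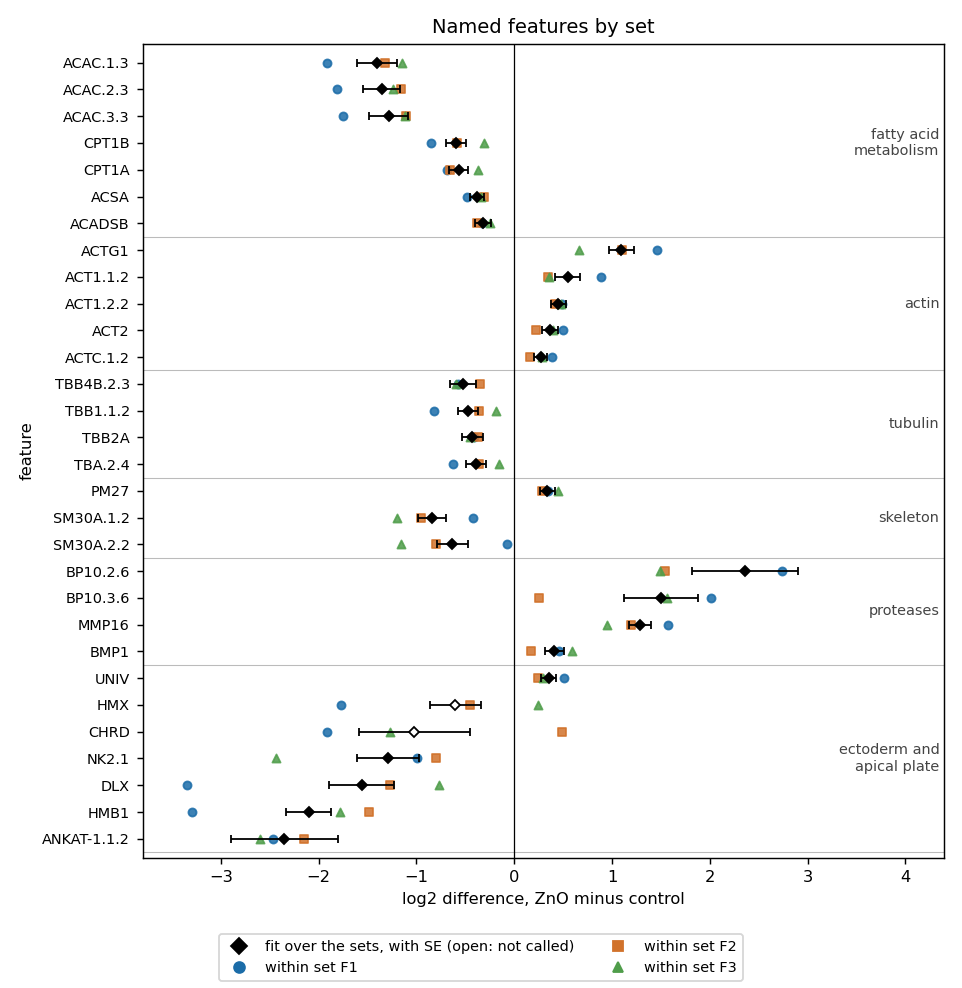
The log2 difference of ZnO minus control embryos (x axis) is shown for called features of 6 groups by function, and for HMX and CHRD (y axis), as the value within F1, F2 and F3 (coloured points) and as the fit over the sets with its SE (diamonds, open where not called). The fatty acid genes and tubulins plotted lie left of 0, the actins and proteases plotted right of it, and HMX and CHRD have sets on both sides.

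The deepest changes that held their sign in each set and had a mean of at least 1 on the log2 CPM scale were in features without a gene name, which the files do not describe further. The numbered contig contig_20334 had 40.0, 37.8 and 28.5 CPM in ZnO embryos, against 0.302, 0.403, 1.65 and 0.993 CPM in control embryos, a log2 fold change of 5.39 ± 0.25, adjusted p = 9.50e-13. Contig contig_10271 had 32.1, 9.49 and 24.6 CPM in ZnO embryos, against 0.867, 0.772, 0.281 and 1.47 CPM in control embryos, a log2 fold change of 4.81 ± 0.27, adjusted p = 2.52e-11. Of the features that fell, LOC100889251 had 0.292, 0.404 and 0.132 CPM in ZnO embryos, against 3.81, 5.68, 6.95 and 7.78 CPM in control embryos (-4.47 ± 0.44, adjusted p = 9.51e-07), and LOC577625 had 0.365, 0.363 and 1.15 CPM in ZnO embryos, against 8.33, 9.13, 5.68 and 17.6 CPM in control embryos (-4.07 ± 0.24, adjusted p = 4.88e-11). In each of these the groups were far apart, and no call was lost with any 1 library left out. With all contigs of a name summed, 356 of 8387 names of any kind were called (4.24%), and 32 of the 389 gene names among them, 14 higher and 18 lower.

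Most features called from 2 sets kept their direction in the set left out, whose libraries took no part in the call. With F1 left out, 383 of 473 features called higher (81.0%) were also higher in F1 and 360 of 412 called lower (87.4%) were also lower there, against 56.4% and 55.0% of all features with that sign in the other sets. With F2 left out the shares were 86.1% of 613 and 80.4% of 757, against 54.0% and 54.9%. With F3 left out they were 91.3% of 427 and 93.0% of 513, against 57.1% and 53.3%. Across the 38710 features with a mean log2 CPM of at least 1, the ZnO minus control differences correlated at 0.31 between F1 and F2, 0.37 between F1 and F3 and 0.30 between F2 and F3, where features share the libraries of their set.

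**Figure D4:**
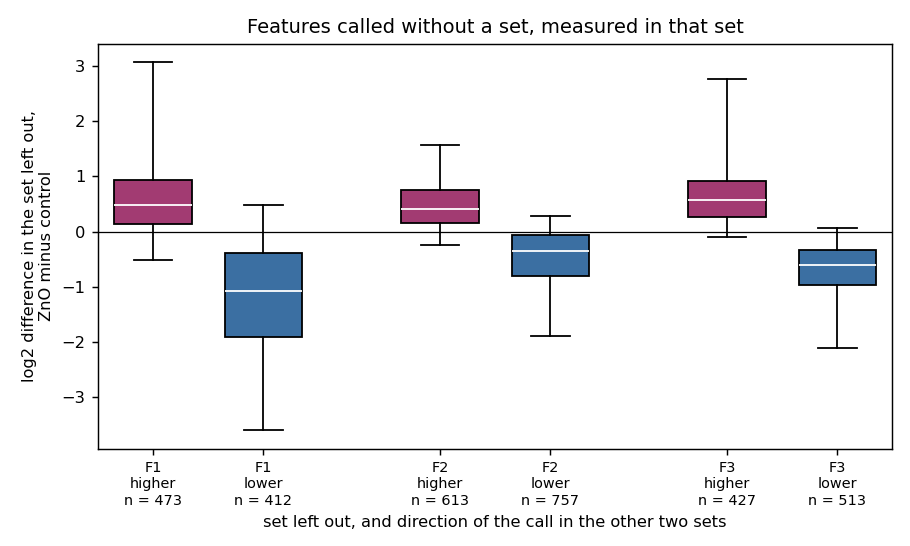
For features called higher (purple) or lower (blue) from 2 sets, the log2 difference of ZnO minus control embryos in the set left out is shown on the y axis, with the set and direction on the x axis; boxes give the median and quartiles and whiskers the 5th to 95th percentile. The medians are 0.48, 0.41 and 0.57 for features called higher and -1.08, -0.36 and -0.60 for those called lower, in F1, F2 and F3.

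The effect of ZnO differed between sets in 890 features (1.42% of those tested), by the set-by-treatment terms, whose spread rests on the duplicate libraries of F1 alone (4 residual degrees of freedom). Of these, 561 had their largest difference in F1, 115 in F2 and 214 in F3, 233 were also called over the sets, and 28 had a gene name. Among all 1311 called features, the median within-set difference was 0.80 in F1, 0.55 in F2 and 0.62 in F3 for those that rose, and -1.05, -0.60 and -0.68 for those that fell. Each set has a single ZnO library, so a property of that library and of the set cannot be told apart. If the F1 duplicates are repeat libraries of the same culture, the p-values of these terms leave out the spread between cultures. Differences between cultures could then not be told apart from a ZnO effect that differs between sets.

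By list, 4 of 6 ectoderm, 4 of 8 signalling and 3 of 6 gut features differed between sets. So did 3 of 13 proteases and 4 of 19 secreted and matrix proteins. The share was 1.42% over all features tested, and 28 of the 574 gene-named features differed. FGFR.1.3, FGFR.2.3 and FGFR.3.3 of the signalling list are contigs of the same name, as are ENDO16.1.3 and ENDO16.3.3 of the gut list. The gene-named features described first were chosen for the smallest p of this difference. CHRD had 79.1, 322 and 116 CPM in ZnO embryos, against 309, 289, 230.1 and 281 CPM in control embryos. In F1 and F3 the ZnO library lay far below its controls, and in F2 it lay above (-1.92, 0.49 and -1.27 within F1, F2 and F3; adjusted p of the set-by-treatment terms = 5.46e-10), so that over the sets it was not called (-1.02 ± 0.57, adjusted p = 0.540). HMX had 36.2, 79.4 and 141 CPM in ZnO embryos, against 124, 123, 109 and 118 CPM in control embryos, which is -1.77, -0.45 and 0.25 within F1, F2 and F3 (adjusted p = 9.07e-09), and was not called over the sets either (-0.60 ± 0.26, adjusted p = 0.349). DLX kept its direction, at -3.34, -1.27 and -0.77 within F1, F2 and F3 (adjusted p = 1.12e-09), as did HMB1, at -3.30, -1.48 and -1.78 within F1, F2 and F3 (adjusted p = 1.85e-08). The gut gene ENDO16, picked out here after its values were seen, had 109, 273 and 246 CPM in ZnO embryos, against 156, 174, 196 and 236 CPM in control embryos in ENDO16.1.3. It was lower with ZnO in F1 and higher in F2 (-0.60, 0.48 and 0.06 within F1, F2 and F3; adjusted p = 0.000327), and over the sets its log2 fold change was -0.10 ± 0.24, adjusted p = 0.937.

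Set beside embryos exposed to the zinc salt, ZnO embryos differed in few features. Between ZnO and ZnSO4, 49 of 62865 features were called (0.0779%), 28 higher and 21 lower with ZnO, 4315 had an unadjusted p under 0.05, and 19 of the 49 were also called between ZnO and control. The count ranged from 4 (without the F3 ZnO library) to 342 (without the F1 ZnO library) when ZnO libraries were left out in turn, was 26 without the F2 ZnO library, and was 193 by DESeq2. Summed metallothionein stood at 10877 ± 2019 CPM in ZnO embryos (SD, n = 3) and 11689 ± 789 CPM in ZnSO4 embryos (SD, n = 4), a log2 difference of -0.12 ± 0.09 (95% interval -0.30 to 0.06), adjusted p = 0.891. No MT feature was called between the zinc forms.

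Of the 49 features, 4 had a gene name, each named here for that reason. ANKAT-1.2.2 had 0.839, 0.404 and 0.0329 CPM in ZnO embryos, against 5.75, 5.54, 0.555 and 0 CPM in ZnSO4 embryos, lower with ZnO in F1 and F2 and close to 0 in F3 in both, a log2 difference of -2.17 ± 0.41 (95% interval -3.01 to -1.32), adjusted p = 0.0366. The more abundant contig ANKAT-1.1.2 was not called between the zinc forms, with 12.4, 11.9 and 9.45 CPM in ZnO embryos, against 71.9, 73.9, 9.29 and 2.58 CPM in ZnSO4 embryos, lower with ZnO in F1 and higher in F2 and F3 (-1.43 ± 0.56, 95% interval -2.58 to -0.27, adjusted p = 0.572). EVE, a homeobox gene of the endoderm list, had 98.2, 223 and 159 CPM in ZnO embryos, against 47.5, 56.3, 179 and 106 CPM in ZnSO4 embryos (F1, F1, F2, F3), higher with ZnO within each set, a log2 difference of 0.67 ± 0.12 (95% interval 0.42 to 0.92), adjusted p = 0.0267. NDUFS7, a subunit of respiratory complex I, had 58.5, 379.9 and 112 CPM in ZnO embryos, against 40.8, 42.3, 205 and 83.6 CPM in ZnSO4 embryos, a log2 difference of 0.66 ± 0.12 (95% interval 0.40 to 0.92), adjusted p = 0.0383, and TRIM25, named for a ubiquitin ligase, gave 0.97 ± 0.19 (95% interval 0.58 to 1.35), adjusted p = 0.0408. EVE, NDUFS7 and TRIM25 were not called between ZnO and control (adjusted p = 0.896, 0.771 and 0.178).

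The changes against control can be given side by side, with the reminder that both zinc comparisons use the same 4 control libraries. ACAC.1.3 had a log2 fold change of -1.40 ± 0.21 with ZnO and -1.48 ± 0.19, adjusted p = 1.08e-05 with ZnSO4. MMP16 had 1.28 ± 0.11 with ZnO and 1.40 ± 0.10, adjusted p = 4.08e-09 with ZnSO4. HMB1 had -2.10 ± 0.23 with ZnO and -2.98 ± 0.21, adjusted p = 1.86e-09 with ZnSO4, and the difference of the zinc forms was 0.88 ± 0.22 (95% interval 0.42 to 1.34), adjusted p = 0.151. CHRD had -1.02 ± 0.57 with ZnO and -3.20 ± 0.56, adjusted p = 0.000633 with ZnSO4, a difference of 2.18 ± 0.55 (95% interval 1.05 to 3.31), adjusted p = 0.146, which does not show that the forms act alike. ACTC.1.2, called with ZnO at 0.27 ± 0.07, had -0.01 ± 0.06, adjusted p = 0.972 with ZnSO4, and the difference of 0.28 ± 0.07 (95% interval 0.14 to 0.42), adjusted p = 0.125 was not called.

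Against the mean of the iron treatments, ZnO embryos differed in 1908 features (3.04%), 945 higher (1.5%) and 963 lower (1.53%). All 23 MT features were higher, and S39AE, the other member of the zinc list, was called lower. The summed metallothionein difference was 1.02 ± 0.08 on the log2 scale, adjusted p = 7.15e-09. The fatty acid list gave 6 of 8 features lower and none higher, the actins 6 of 7 higher and none lower, the tubulins 3 of 33 lower and none higher, and the proteases 7 of 13 higher and none lower. Gene-named features were called more often than others against control. Their share against iron was not computed, so the tubulin count in particular is not read as a result of the group. This comparison sets ZnO against no control library, though all 19 libraries entered the fit. The same 3 ZnO libraries serve both comparisons.

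**Figure D5:**
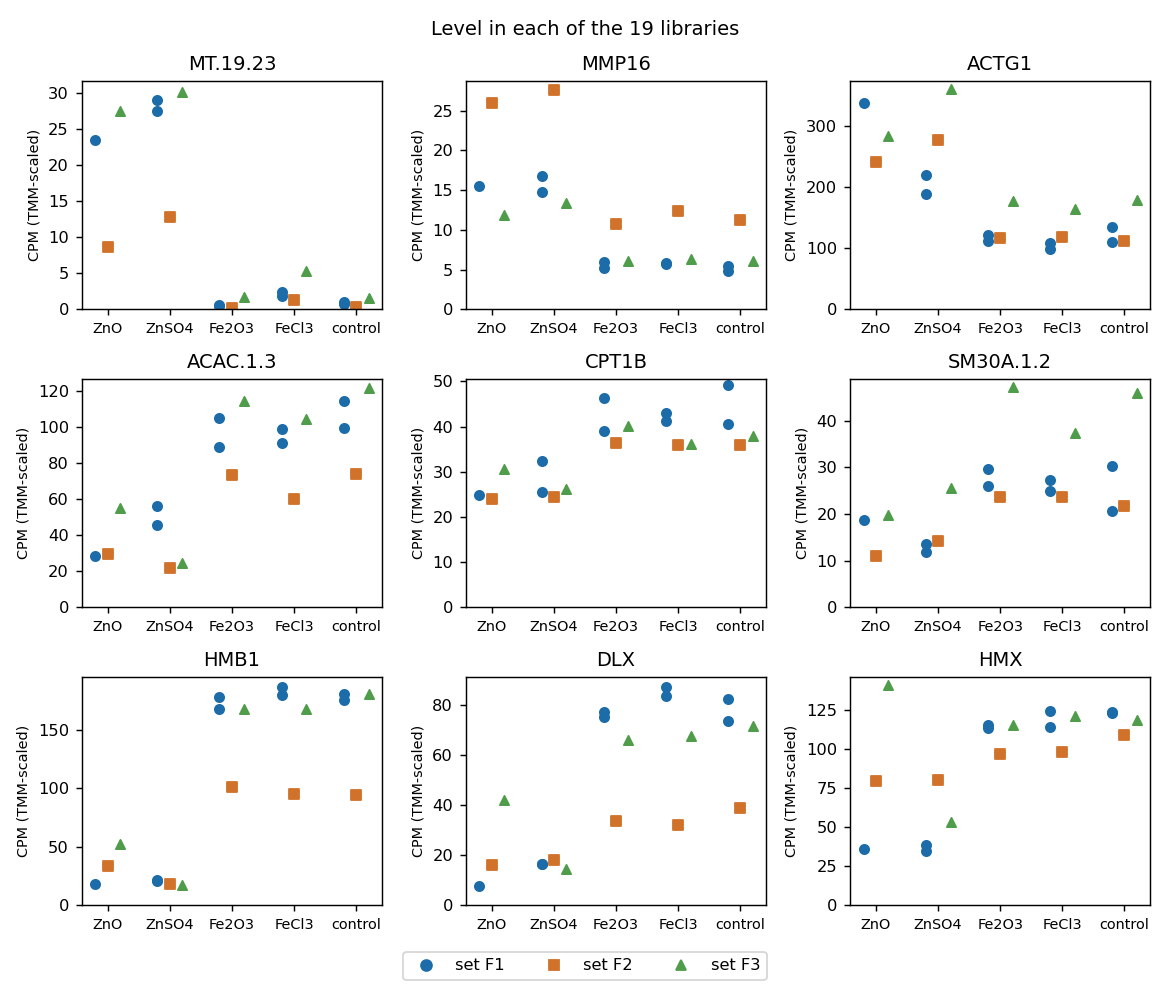
The level of 9 features in each of the 19 libraries is shown in CPM (y axis, from 0) by treatment (x axis), with the set as colour and shape. Within each set MT.19.23, MMP16 and ACTG1 are higher in both zinc treatments than in controls and ACAC.1.3, CPT1B, HMB1 and DLX lower, and the F3 ZnO library stands above the other zinc libraries for HMX.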

How the data were processed

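The authors deposited 1 table of counts, whole numbers for 63389 features in 19 libraries, without normalization. The submitters' processing notes name BWA 0.7.12-r1039, SAMtools 1.3.1 and Trim Galore 0.4.0; which reference and counter were used, with which strand option, and how reads matching several features were handled is not given in the sources used here. Per the labels' protocols, total RNA of whole embryos was selected for poly(A). No reference genome was used here, no sequence is shown, and the table gives no gene names for LOC identifiers or contigs.

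The analysis used R 4.3.3 with edgeR 4.0.16, which loads limma 3.58.1. After filterByExpr on treatment (62865 features) and TMM scaling, 1 quasi-likelihood model with terms for treatment and set was fitted to all 19 libraries, so that iron and ZnSO4 libraries add to the estimate of the spread (12 residual and 11.1 prior degrees of freedom). P-values were adjusted by Benjamini-Hochberg over all features tested, and called at 0.05. Set-by-treatment terms were tested in a second such model. Within-set differences are on the log2 CPM scale with a prior count of 2, and CPM are TMM-scaled. The set was taken as the pairing of the samples. Deviations from the group means correlated at 0.86 to 0.89 between ZnO and control libraries of the same set and at -0.62 to -0.23 between those of different sets. Libraries of a set thus shared variation, of a source that the labels do not give. Such deviations cancel out within a group, so the negative values follow in part from the positive ones. Library totals bound the precision for counting error only. The script was tested on simulated counts.

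Named features are up to 15 higher and 15 lower with a gene name (called, mean log2 CPM of at least 1, same sign in each set), all MT features, up to 4 called and 2 uncalled members of each list, 2 higher and 2 lower features without a gene name, and up to 5 features with the smallest p for a difference between sets. The comparison, its gene lists and this rule were chosen with earlier results of these data known, 10 of the 31 lists once feature names had been seen, of which the actin and tubulin lists once values had been seen. One feature within this rule is not reported here. Alternatives were RLE size factors, DESeq2 1.42.0, other filters, no set term, F1 duplicates summed, each set or library left out, and ZnO and control libraries alone; contigs of a name summed and the iron libraries left out were added after seeing the data.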

Additional observations from a re-analysis of the deposited data

Results flagged for a closer look

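Control libraries stood apart from each other in 8 of the 65 named features called. In these the gap between the farthest of the 4 controls and its neighbour took up more of the range than Dixon's 95% critical value. Chance does so in about 1 of 20 groups of independent values. Here 2 of the controls are duplicates of set F1, so a lone F2 or F3 control is met more often than that. The lone control was that of F2 in most: the gap over the range was 0.986 for MT.6.23 (522 CPM against 28.2 to 35.3), 0.977 for NADK.1.3, 0.937 for HMB1, 0.894 for ACTC.1.2, 0.870 for DUOX1.1.2 and 0.859 for BMP1. It was the F3 control for MT.11.23 (0.881) and MT.12.23 (0.858). In NADK.1.3 the values were 62.9, 129.8 and 90.3 CPM in ZnO embryos, against 55.2, 53.9, 109 and 54.4 CPM in control embryos.

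By the set-by-treatment terms, the ZnO change differed between sets in 16 features taken by the naming rule and in 4 named only for this difference. The spread behind these terms comes from the F1 duplicates alone, which may not hold the spread between cultures. The adjusted p of the terms was 5.46e-10 for CHRD, 1.12e-09 for DLX, 9.07e-09 for HMX and 1.85e-08 for HMB1. It was 8.30e-05 for FREM2, 0.000327 for ENDO16.1.3, 0.000855 for contig_20334 (6.58, 4.46 and 4.75 within F1, F2 and F3), 0.00230 for NK2.1 and 0.00462 for ARC3. It was 0.015 for MT.21.23, 0.0284 for ACTG1 and 0.0292 for MT.5.23. Among features that were not called over the sets it was 0.000316 for ENDO16.3.3, 0.000580 for MMP14.3.5, 0.00119 for MMP14.1.5, 0.00202 for WNT2, 0.00956 for ARS.2.5, 0.0105 for FGFR.3.3, 0.0301 for FGFR.1.3 and 0.0311 for FGFR.2.3. In these but WNT2, and in CHRD, HMX and ENDO16.1.3, the direction itself was not the same in each set.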

How the results depend on the processing

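Of the 65 named features called, 0 changed sign under any alternative, nor did summed metallothionein. These features were chosen for being called, many also for the same sign in each set, so a change of sign was unlikely from the start. Results near 0 did: 22 of 59 named features not called (18 with 1 library left out) and 18 of 31 list medians (15 with 1 library left out), none over 0.20 in size. The count of 1311 features called stayed within 1.5 times under RLE size factors (1336), no filter (1326), a stricter filter (1362), ZnO and control libraries alone (1416), DESeq2 (1643), names summed (1244) and without set F1 (885), F2 (1370) or F3 (940). It moved to 837 (394 higher, 443 lower) with the F1 duplicates summed and to 829 without the iron libraries (406 lower), and features called lower numbered 412 without set F1. With 1 library left out it ran from 651 (353 higher, 298 lower; without the F1 ZnO library) to 1381 (625 higher, 756 lower; without the F2 ZnO library), and was 873 (466 lower) without the F3 control library. The replicate block mattered most: without the set term, 30 features were called (23 higher, 7 lower), 11 of 65 named features stayed called, and summed metallothionein rose by 0.98 with an adjusted p of 0.160. The named features that stayed called numbered 41 without the F1 ZnO library, the lowest of the omissions, and at most 59. Between ZnO and ZnSO4, 49 features became 0 without the set term, 193 by DESeq2, and 4 to 342 with ZnO libraries left out in turn. The cause was not tested. RLE size factors and the absence of a filter changed no call among the 124 named features. SM30A.1.2 missed the threshold without set F3 (adjusted p = 0.0507). Scarce features limit what can be said: 0.49% of the lowest quartile by abundance was called against 4.63% of the highest.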

Other observations

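Further features with a gene name differed between sets without being called over them. WNT2, a signalling ligand, had 104, 91.6 and 60.6 CPM in ZnO embryos, against 50.6, 54.0, 79.7 and 50.1 CPM in control embryos, higher with ZnO in F1 above all (0.99, 0.20 and 0.28 within F1, F2 and F3; adjusted p of the set-by-treatment terms = 0.00202), and its log2 fold change over the sets was 0.53 ± 0.15, adjusted p = 0.0705. The contigs of FGFR, a fibroblast growth factor receptor, were lower with ZnO in F1 and higher in F2, FGFR.1.3 at -0.45, 0.23 and -0.17 within F1, F2 and F3 (adjusted p = 0.0301), FGFR.2.3 at -0.42, 0.35 and -0.09 within F1, F2 and F3 (adjusted p = 0.0311) and FGFR.3.3 at -0.68, 0.38 and -0.13 within F1, F2 and F3 (adjusted p = 0.0105). The matrix protease MMP14.1.5 was higher with ZnO in F1 and F3 and lower in F2 (0.42, -0.26 and 0.79 within F1, F2 and F3; adjusted p = 0.00119). These genes were chosen after their values were seen.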
